A study of Mus musculus with 9 samples.

Results

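The 51 genes described here encode the proximal signalling machinery of the T cell receptor (TCR) and the calcium branch that leads to NFAT. They were taken as a list of named genes and matched by symbol to rows of the count table, and all 51 were found among its 48663 entries. By role the list held 4 chains of the receptor complex, 4 tyrosine kinases, 8 adaptors and scaffolds, 8 genes of the phospholipase, Vav and Ras branch, 18 genes mostly known as brakes and 9 genes of calcium release, calcium entry, calcineurin and NFAT.

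RNA was sequenced from memory T cells sorted from mouse spleen on day 30 after infection with LCMV Arm, a strain of lymphocytic choriomeningitis virus, by their binding of a tetramer of a viral peptide on an MHC molecule. The CD4 ThpokAD libraries (3) were from GP66:I-Ab+ cells, which recognise the viral peptide on an MHC class II molecule, of Ox40-Cre+ Thpokfl/fl mice. The CD8 control libraries (3) were from GP33:H-2Db+ cells, which recognise a viral peptide on an MHC class I molecule, of Ox40-Cre- mice. The CD4 control libraries (3) were from GP66:I-Ab+ cells of Ox40-Cre- mice. Thpok is a transcription factor, encoded by Zbtb7b, that sets the CD4 helper lineage. Ox40, encoded by Tnfrsf4, is a costimulatory receptor that T cells make after activation, so the Cre acts in cells that have switched on this gene. Only the CD4 ThpokAD mice carried Cre, and the labels give no Thpok allele for the mice without it, so effects of Cre and of Thpok loss cannot be told apart here. Age and strain are not in the labels, nor is it stated whether a replicate is its own animal, and the p-values therefore cover the spread between libraries that may be technical replicates only.

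As background, the receptor has no enzymatic activity of its own. Its CD3 and zeta chains are phosphorylated by Lck and Fyn, which lets Zap70 bind and phosphorylate the scaffolds LAT and SLP-76. These gather phospholipase C-gamma, which splits a membrane lipid into diacylglycerol, the activator of Ras and protein kinase C-theta, and inositol trisphosphate, which opens calcium stores. The emptied store is sensed by STIM1, which opens the ORAI1 channel in the plasma membrane, and the calcium that enters activates calcineurin and moves NFAT to the nucleus. A second layer of phosphatases, lipid kinases, ubiquitin ligases and inhibitory adaptors damps each of these steps.

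The libraries held 16664474 to 38981516 counts. CD8 control replicate 3 stood apart as the deepest, with the lowest mitochondrial share (1.08% of counts, against 1.78% to 3.802% in the other 8 libraries) and the highest level of the Cd3d, Cd3e and Cd3g chains. Zbtb7b averaged 0.807 ± 0.095 CPM (counts scaled to library size by edgeR's CPM; mean ± SD, 3 libraries each) in CD4 ThpokAD, 20.8 ± 2.9 CPM in CD8 control and 45.0 ± 5.7 CPM in CD4 control, a level in CD4 ThpokAD below every control library. Cd4 averaged 635 CPM in CD4 ThpokAD, 1.28 CPM in CD8 control and 1354 CPM in CD4 control. Cd8a averaged 49.6, 813 and 3.24 CPM in the same order of groups, and Cd8b1 56.4, 2379 and 18.3 CPM. Cd4 was therefore high in both groups sorted with the class II tetramer, and the CD8 genes in the group sorted with the class I tetramer. Summed levels of 6 T cell markers were 4214 to 4524 CPM in CD4 ThpokAD, 3747 to 5096 CPM in CD8 control and 4318 to 4685 CPM in CD4 control. Tnfrsf4 itself averaged 81.1 CPM in CD4 ThpokAD, 1.44 CPM in CD8 control and 378 CPM in CD4 control.

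All 51 genes passed the filter on low counts that left 15738 genes, and each was tested with edgeR's quasi-likelihood test in the fit across all of these. A gene was called at a Benjamini-Hochberg adjusted p under 0.05, and every adjusted p below is from that test unless another is named. Where a gene has 3 values in a group, they are those of replicates 1 to 3. Log2 fold changes are of the group named before over the group named after. In these bulk samples, fewer cells of a type and less RNA per cell cannot be told apart.

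Between CD4 ThpokAD and CD4 control, the comparison of Thpok-deleted with Cre-negative CD4 cells, 4 of the 51 genes were called higher in CD4 ThpokAD (Ppp3ca, Dok2, Ubash3b and Sla2) and 2 lower (Dgka and Itpr2), while 1.81% of all genes tested were called higher and 0.928% lower. The 3 libraries of each group did not overlap for 11 genes that were higher in CD4 ThpokAD (13.2% of all genes) and 14 that were lower (12.5%). Ppp3ca had the largest change of the 51 in this comparison, and was the only member past 1 log2 unit. The median log2 fold change of the 51 was -0.10, against 0.00 for all genes tested. DESeq2 called 12 of the 51 (9.3% of all genes by that tool), adding Cbl, Sit1, Pag1, Orai1 and Grap2 as lower and Dok1 as higher. Leaving out 1 library at a time gave 1 to 2 members called higher and 0 to 3 lower; 0 were called lower without CD4 ThpokAD replicate 1 or without CD4 ThpokAD replicate 3.

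Between CD8 control and CD4 control, which compares the lineages in mice without Cre, 3 genes were called higher in CD8 control (Sla2, Ppp3ca and Cd3d) and 9 lower (Orai1, Nfatc1, Cd5, Itpr2, Ptprc, Nfatc2, Cd6, Lcp2 and Sit1), while 5.13% of all genes were called higher and 6.55% lower. The libraries did not overlap for 7 members higher in CD8 control (17.3% of all genes) and 19 lower (16.6%). The median log2 fold change of the 51 was -0.08, against 0.01 for all genes. DESeq2 called 20 of them (19.4% of all genes by that tool). Leaving out 1 library gave 1 to 3 members higher, with 1 without CD4 control replicate 1 or without CD4 control replicate 2, and 5 to 8 lower, with 5 without either of the same libraries.

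Between CD4 ThpokAD and CD8 control, 4 genes were called higher in CD4 ThpokAD (Orai1, Cd5, Nfatc1 and Cd6) and 2 lower (Prkcq and Cd3d), while 4.63% of all genes were called higher and 1.91% lower. The libraries did not overlap for 19 members higher in CD4 ThpokAD (14.6% of all genes) and 8 lower (12.6%). The median log2 fold change was 0.13, against -0.01 for all genes. DESeq2 called 21 of the 51 (15.1% of all genes by that tool). Leaving out 1 library gave 3 to 4 members called higher and 0 to 1 lower, with 0 lower without CD4 ThpokAD replicate 1. Across the 3 comparisons, which share libraries, 16 members were called at least once, 8 of them in 2 comparisons, and 35 in none. At the unadjusted p threshold of 0.05 by edgeR, 19 members were below it for CD4 ThpokAD over CD4 control (15.7% of all genes), 21 for CD4 ThpokAD over CD8 control (21.3%) and 23 for CD8 control over CD4 control (26.2%).

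**Figure D1:**
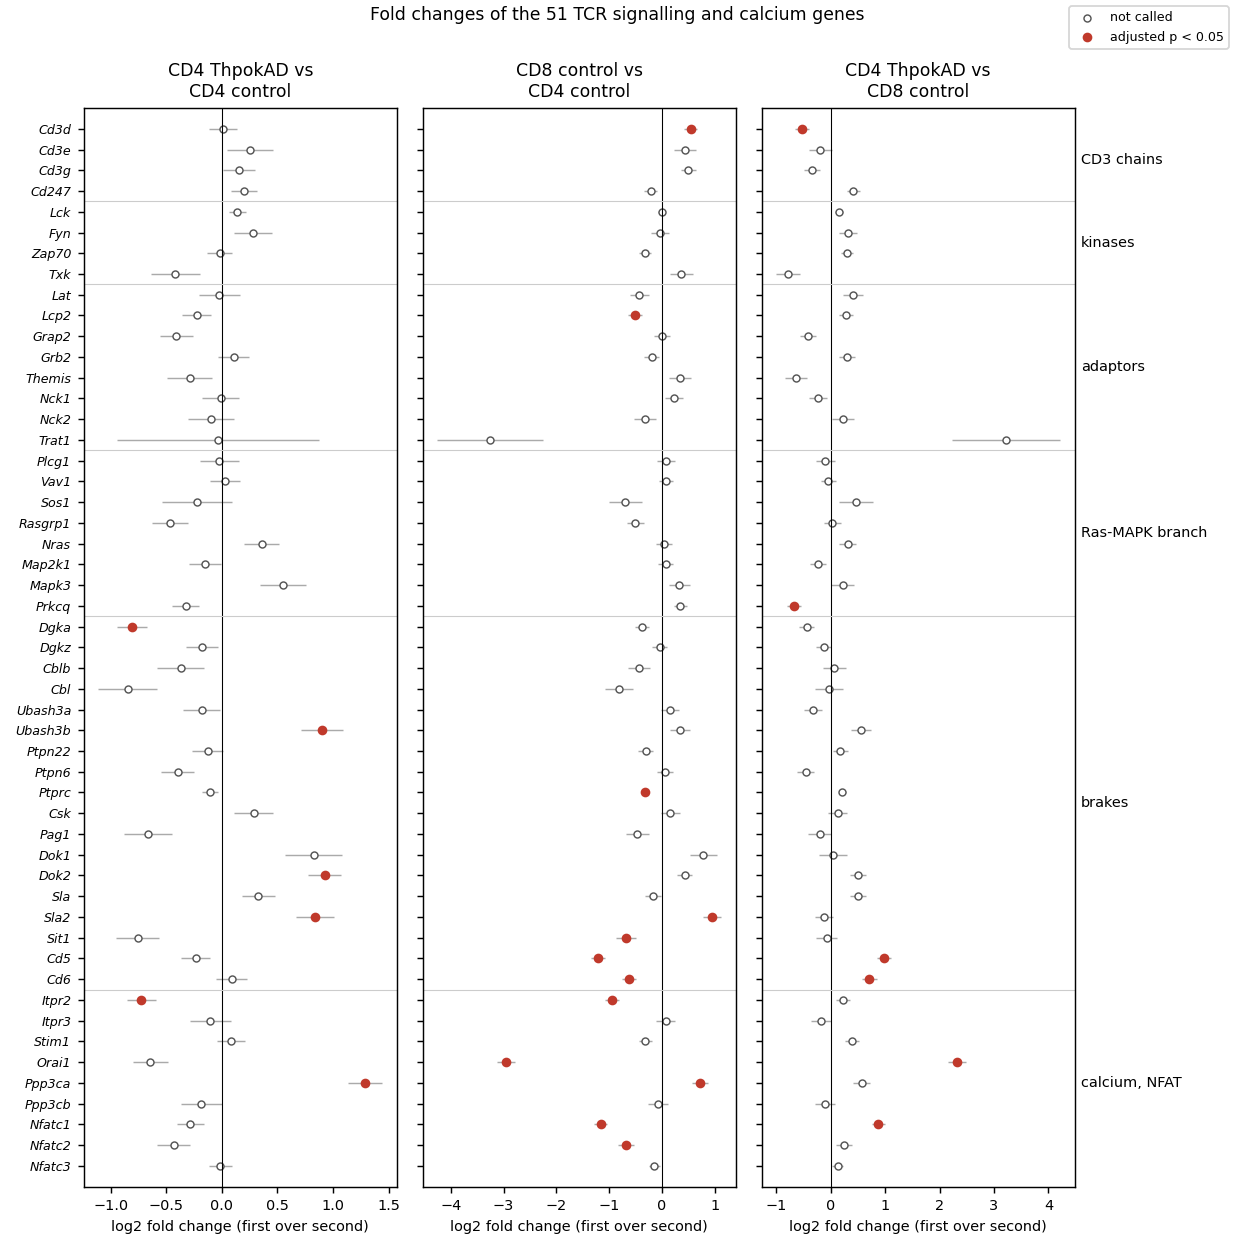
Log2 fold change (x axis, first group over second) of each of the 51 genes (rows, grouped by role) in the 3 comparisons, with bars of 1 SE; red filled points are genes called at an adjusted p under 0.05. Orai1 is the called gene farthest from 0 in both comparisons with CD8 control, at -2.96 for CD8 control over CD4 control and 2.32 for CD4 ThpokAD over CD8 control, and Ppp3ca is farthest in CD4 ThpokAD over CD4 control, at 1.29. The axes differ between panels.

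The calcium and calcineurin genes held the largest called difference of each comparison, Orai1 in those with CD8 control and Ppp3ca in CD4 ThpokAD over CD4 control. Orai1 (chr5:123015074-123030456 of GRCm38, plus strand), the pore of the store-operated calcium channel, had 259, 274 and 256 CPM in CD4 ThpokAD libraries, 57.0, 40.5 and 60.7 CPM in CD8 control libraries and 369, 456 and 409 CPM in CD4 control libraries. The 3 groups did not overlap, with CD8 control far below both CD4 groups and CD4 ThpokAD below CD4 control. Orai1 was 7.79-fold lower in CD8 control than in CD4 control (log2 fold change -2.96, SE 0.17, adjusted p = 1.5e-05) and 4.98-fold higher in CD4 ThpokAD than in CD8 control (log2 fold change 2.32, SE 0.17, adjusted p = 8.22e-05), and both calls held whichever library was left out. Its difference between CD4 ThpokAD and CD4 control was not called (log2 fold change -0.65, SE 0.16, adjusted p = 0.0727), although DESeq2 called it (adjusted p = 0.0016) and so did edgeR without CD8 control replicate 2 (adjusted p = 0.0297) and in a fit of only the 6 libraries compared (adjusted p = 0.0263). Stim1, the calcium sensor that opens ORAI1, averaged 251 ± 17.0 CPM in CD4 ThpokAD, 191 ± 18.4 CPM in CD8 control and 238 ± 25.2 CPM in CD4 control. It was called by edgeR in no comparison, and by DESeq2 in CD4 ThpokAD over CD8 control (adjusted p = 0.0114) and CD8 control over CD4 control (adjusted p = 0.0383).

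Ppp3ca (chr3:136670124-136937727, plus strand), a catalytic subunit of the phosphatase calcineurin, had 155, 126 and 164 CPM in CD4 ThpokAD libraries, 111, 91.2 and 98.0 CPM in CD8 control libraries and 56.5, 57.0 and 68.5 CPM in CD4 control libraries. The groups stood in another order here, with every CD4 ThpokAD library above every CD8 control library and these above every CD4 control library. It was 2.45-fold higher in CD4 ThpokAD than in CD4 control (log2 fold change 1.29, SE 0.15, adjusted p = 0.00314), the 1 call of that comparison that held whichever library was left out. In CD8 control over CD4 control it was also called (log2 fold change 0.72, SE 0.15, adjusted p = 0.017), but not without CD8 control replicate 1, CD4 control replicate 1 or CD4 control replicate 2 (adjusted p = 0.0582 to 0.0737). CD4 ThpokAD over CD8 control gave a log2 fold change of 0.57 (SE 0.15, adjusted p = 0.061), not called by edgeR but called by DESeq2 (adjusted p = 0.0021). Another catalytic subunit, Ppp3cb, averaged 52.4 ± 5.1 CPM in CD4 ThpokAD, 56.6 ± 11.1 CPM in CD8 control and 59.6 ± 6.1 CPM in CD4 control. Ppp3cb was called in no comparison by either tool. A further relative outside the member list, Ppp3cc, averaged 126 ± 24.5 CPM in CD4 ThpokAD, 177 ± 33.1 CPM in CD8 control and 152 ± 11.4 CPM in CD4 control.

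Nfatc1, an NFAT factor whose own transcription is driven by TCR signals, had 527, 607 and 510.3 CPM in CD4 ThpokAD libraries, 321, 261 and 313 CPM in CD8 control libraries and 628, 727 and 648 CPM in CD4 control libraries. CD8 control was lowest and the 3 groups did not overlap. It was called lower in CD8 control than in CD4 control (log2 fold change -1.16, SE 0.12, adjusted p = 0.000404) and higher in CD4 ThpokAD than in CD8 control (log2 fold change 0.88, SE 0.12, adjusted p = 0.00362), and both calls held whichever library was left out. CD4 ThpokAD over CD4 control was not called, at a log2 fold change of -0.28 (SE 0.12, adjusted p = 0.296). Nfatc2, the NFAT factor abundant in resting T cells, had 190.3, 189 and 159 CPM in CD4 ThpokAD libraries, 148, 133 and 172 CPM in CD8 control libraries and 234, 281 and 213 CPM in CD4 control libraries. Both other groups lay below CD4 control and overlapped each other. Nfatc2 was called lower in CD8 control than in CD4 control (log2 fold change -0.68, SE 0.15, adjusted p = 0.0203), but not without replicate 1 or 2 of either group (adjusted p = 0.0549 to 0.0813). CD4 ThpokAD over CD4 control gave a log2 fold change of -0.43 (SE 0.15, adjusted p = 0.196). Nfatc3 was called in no comparison by either tool and averaged 615 ± 19.3 CPM in CD4 ThpokAD, 562 ± 61.3 CPM in CD8 control and 621 ± 26.7 CPM in CD4 control.

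Itpr2, a receptor for inositol trisphosphate that releases calcium from stores, had 158, 186 and 169 CPM in CD4 ThpokAD libraries, 158, 141 and 139 CPM in CD8 control libraries and 327, 255 and 268 CPM in CD4 control libraries. Both CD4 ThpokAD and CD8 control lay below all CD4 control libraries. It was called lower in CD4 ThpokAD (log2 fold change -0.73, SE 0.13, adjusted p = 0.0234) and in CD8 control (log2 fold change -0.95, SE 0.13, adjusted p = 0.002), each over CD4 control. The call in CD8 control held whichever library was left out, while the call in CD4 ThpokAD was absent without CD4 ThpokAD replicate 1 or 3 or any 1 CD4 control library (adjusted p = 0.0501 to 0.0949). CD4 ThpokAD over CD8 control gave a log2 fold change of 0.23 (SE 0.13, adjusted p = 0.369). Its relative Itpr3 was called in no comparison by either tool and averaged 81.2 ± 8.6 CPM in CD4 ThpokAD, 91.5 ± 6.9 CPM in CD8 control and 87.4 ± 20.7 CPM in CD4 control. Of the 9 calcium and NFAT genes, 1 was called higher and 1 lower in CD4 ThpokAD over CD4 control (1.81% and 0.928% of all genes). In CD8 control over CD4 control 1 was higher and 4 lower (5.13% and 6.55%), and in CD4 ThpokAD over CD8 control 2 were higher (4.63%).

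**Figure D2:**
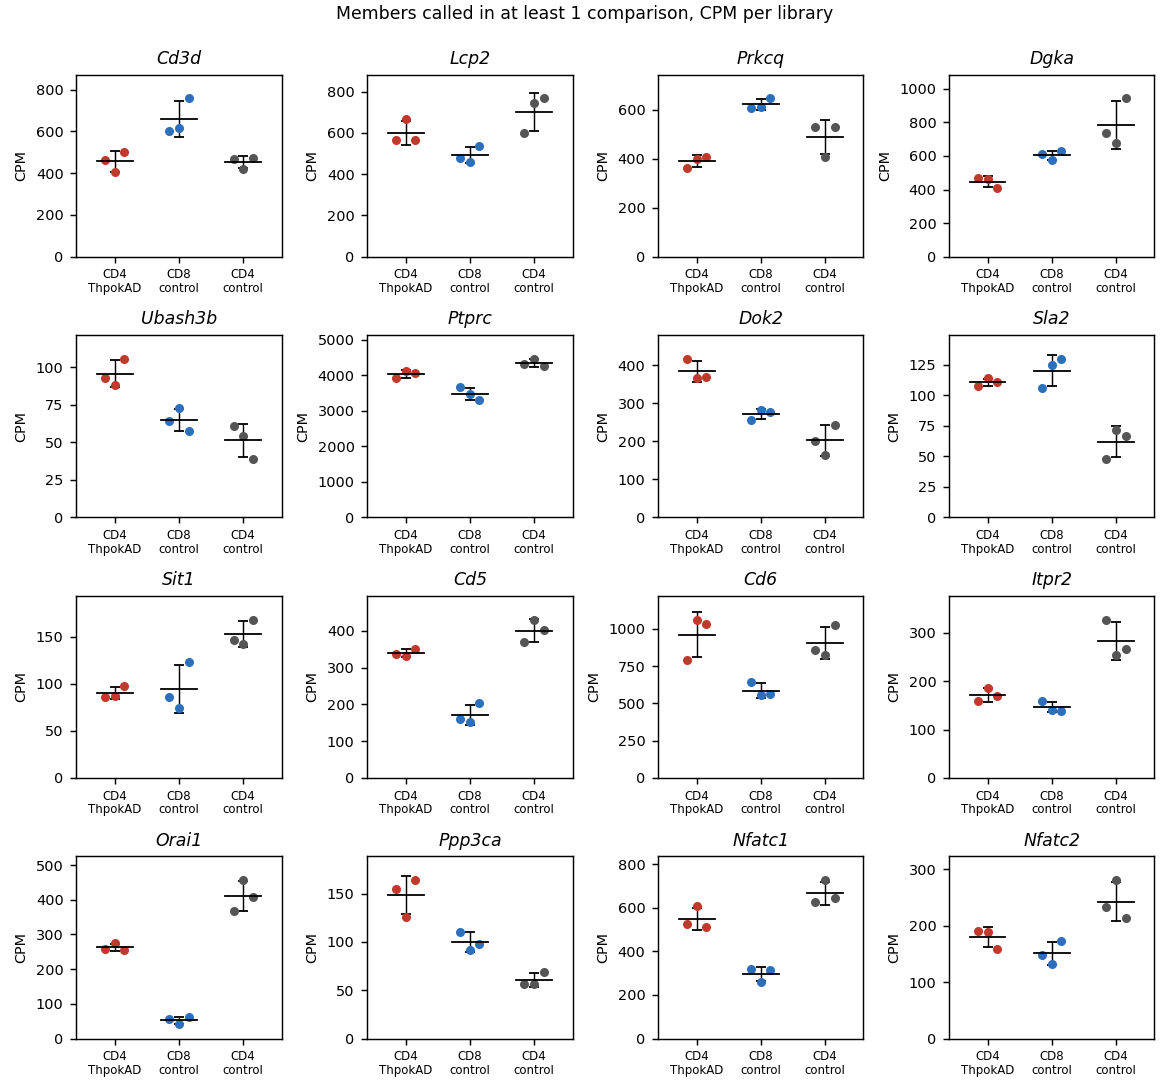
CPM (y axis, from 0) in each library for the 16 genes called in at least 1 comparison, by group (x axis); points are libraries, the long line is the group mean and the bar is 1 SD of 3 libraries. Orai1 lies at 256 to 274 CPM in CD4 ThpokAD, 40.5 to 60.7 CPM in CD8 control and 369 to 456 CPM in CD4 control, while Ppp3ca runs the other way between the CD4 groups.

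Calls among the brakes went in both directions. Of the 18 genes, 3 were called higher and 1 lower in CD4 ThpokAD over CD4 control (1.81% and 0.928% of all genes). In CD8 control over CD4 control 1 was higher and 4 lower (5.13% and 6.55%), and in CD4 ThpokAD over CD8 control 2 were higher (4.63%). Among the inhibitory adaptors, Dok2, which recruits the Ras GTPase-activating protein, had 416, 365 and 369 CPM in CD4 ThpokAD libraries, 255, 281 and 278 CPM in CD8 control libraries and 199, 163 and 243 CPM in CD4 control libraries. Every CD4 ThpokAD library was above every CD8 control library, and these were above every CD4 control library. Dok2 was called higher in CD4 ThpokAD than in CD4 control (log2 fold change 0.92, SE 0.15, adjusted p = 0.0144), but not without CD4 ThpokAD replicate 1 or CD4 control replicate 1 (adjusted p = 0.0633 to 0.0683). The differences of CD4 ThpokAD over CD8 control, a log2 fold change of 0.50 (SE 0.15, adjusted p = 0.0888), and of CD8 control over CD4 control, a log2 fold change of 0.43 (SE 0.15, adjusted p = 0.104), were not called by edgeR. DESeq2 called Dok2 in the first of these (adjusted p = 0.00919). Its relative Dok1 had 26.9, 30.6 and 34.3 CPM in CD4 ThpokAD libraries, 32.4, 35.0 and 21.7 CPM in CD8 control libraries and 21.7, 14.6 and 15.5 CPM in CD4 control libraries. CD4 ThpokAD lay above CD4 control and overlapped CD8 control, and the difference from CD4 control, a log2 fold change of 0.83 (SE 0.26, adjusted p = 0.15), was called by DESeq2 (adjusted p = 0.0392) but not by edgeR.

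Sla2, an adaptor that brings the ubiquitin ligase Cbl to the receptor, had 108, 114 and 111 CPM in CD4 ThpokAD libraries, 106, 125 and 129.8 CPM in CD8 control libraries and 47.6, 71.7 and 66.9 CPM in CD4 control libraries. CD4 ThpokAD and CD8 control overlapped and both lay above CD4 control. It was called higher than in CD4 control in CD4 ThpokAD (log2 fold change 0.84, SE 0.17, adjusted p = 0.0371) and in CD8 control (log2 fold change 0.95, SE 0.17, adjusted p = 0.0077). The call in CD8 control held whichever library was left out, while the call in CD4 ThpokAD was absent when any 1 of the 9 libraries was left out (adjusted p = 0.0523 to 0.116). Of the exon bases of Sla2, 17.2% overlap Rab5if on the other strand, and the libraries do not mark strand. Sla, its relative, averaged 776 ± 100.4 CPM in CD4 ThpokAD, 551 ± 63.0 CPM in CD8 control and 618 ± 92.2 CPM in CD4 control. It was called by edgeR in no comparison, and by DESeq2 in CD4 ThpokAD over CD8 control (adjusted p = 0.00954). Sit1, a transmembrane adaptor that binds inhibitory phosphatases, had 85.6, 87.1 and 97.5 CPM in CD4 ThpokAD libraries, 86.2, 74.3 and 123 CPM in CD8 control libraries and 147, 142 and 168 CPM in CD4 control libraries. Again CD4 ThpokAD and CD8 control overlapped, both below CD4 control. Sit1 was called lower in CD8 control than in CD4 control (log2 fold change -0.69, SE 0.19, adjusted p = 0.0488), a call absent when any 1 library other than CD8 control replicate 3 was left out (adjusted p = 0.0693 to 0.149). CD4 ThpokAD over CD4 control gave a log2 fold change of -0.76 (SE 0.19, adjusted p = 0.0769), with an adjusted p of 0.0215 without CD8 control replicate 3.

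The scavenger-type receptors Cd5 and Cd6 are neighbours on chromosome 19, 50338 bases apart. Cd5, which dampens TCR signals and whose surface level follows their strength, had 337, 331 and 352 CPM in CD4 ThpokAD libraries, 161, 153 and 203 CPM in CD8 control libraries and 369.7, 431 and 401 CPM in CD4 control libraries. The groups did not overlap, and CD8 control was lowest. It was called lower in CD8 control than in CD4 control (log2 fold change -1.22, SE 0.13, adjusted p = 0.00046) and higher in CD4 ThpokAD than in CD8 control (log2 fold change 0.98, SE 0.13, adjusted p = 0.0029), both whichever library was left out. CD4 ThpokAD over CD4 control gave a log2 fold change of -0.24 (SE 0.13, adjusted p = 0.441). Cd6, a receptor for the adhesion molecule ALCAM, had 789.6, 1061 and 1030.0 CPM in CD4 ThpokAD libraries, 642, 556 and 559 CPM in CD8 control libraries and 860.1, 824 and 1024 CPM in CD4 control libraries. The CD4 groups overlapped, and CD8 control was below both. Cd6 was called lower in CD8 control than in CD4 control (log2 fold change -0.62, SE 0.14, adjusted p = 0.0222) and higher in CD4 ThpokAD than in CD8 control (log2 fold change 0.71, SE 0.14, adjusted p = 0.0195). The call against CD4 control was absent without CD8 control replicate 2 or 3 or CD4 control replicate 1 or 3 (adjusted p = 0.0544 to 0.0796), and the call in CD4 ThpokAD without replicate 2 or 3 of either group (adjusted p = 0.0568 to 0.0719).

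Among the phosphatases, Ubash3b, which removes phosphates from Zap70, had 93.0, 88.4 and 106 CPM in CD4 ThpokAD libraries, 64.3, 72.7 and 57.7 CPM in CD8 control libraries and 60.8, 54.2 and 38.9 CPM in CD4 control libraries. CD4 ThpokAD lay above both control groups, which overlapped. Ubash3b was called higher in CD4 ThpokAD than in CD4 control (log2 fold change 0.90, SE 0.19, adjusted p = 0.0438), a call absent when any 1 of the 9 libraries was left out (adjusted p = 0.056 to 0.146). Ubash3a averaged 136 ± 22.6 CPM in CD4 ThpokAD, 171 ± 28.6 CPM in CD8 control and 154 ± 6.1 CPM in CD4 control and was called in no comparison by either tool. Ptprc, which encodes the phosphatase CD45 and acts on Lck in both directions, had 3922, 4118 and 4067 CPM in CD4 ThpokAD libraries, 3658, 3465 and 3299 CPM in CD8 control libraries and 4309, 4461 and 4263 CPM in CD4 control libraries. The groups did not overlap, and CD8 control was lowest. Ptprc was called lower in CD8 control than in CD4 control (log2 fold change -0.32, SE 0.07, adjusted p = 0.0194), but not without CD8 control replicate 2 or CD4 control replicate 1 or 2 (adjusted p = 0.0508 to 0.0738). CD4 ThpokAD over CD4 control gave a log2 fold change of -0.11 (SE 0.07, adjusted p = 0.548). Ptpn6, which encodes the phosphatase SHP-1, had 309, 356 and 281 CPM in CD4 ThpokAD libraries, 439, 366 and 497 CPM in CD8 control libraries and 384, 469 and 395 CPM in CD4 control libraries. CD4 ThpokAD was lowest, without overlap with the control groups, and its difference from CD4 control, a log2 fold change of -0.40 (SE 0.15, adjusted p = 0.226), was not called. Ptpn22, a phosphatase that acts on Lck and Zap70, averaged 739 ± 124 CPM in CD4 ThpokAD, 652 ± 66.5 CPM in CD8 control and 808 ± 51.6 CPM in CD4 control and was called in no comparison by either tool.

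Dgka, a kinase that turns diacylglycerol into phosphatidic acid and so limits Ras activation, had 469, 464 and 408 CPM in CD4 ThpokAD libraries, 610.0, 576 and 629.8 CPM in CD8 control libraries and 736, 676 and 944 CPM in CD4 control libraries. Every CD4 ThpokAD library was below every CD8 control library, and these were below every CD4 control library. It was called lower in CD4 ThpokAD cells than in CD4 control (log2 fold change -0.81, SE 0.13, adjusted p = 0.0158), but not when any 1 of the CD4 ThpokAD libraries was left out (adjusted p = 0.0503 to 0.0716). CD8 control over CD4 control gave a log2 fold change of -0.38 (SE 0.13, adjusted p = 0.111), and CD4 ThpokAD over CD8 control one of -0.44 (SE 0.13, adjusted p = 0.0964). Neither was called by edgeR, and DESeq2 called both (adjusted p = 0.0229 and 0.0263). Dgkz, the zeta isoform, averaged 265 ± 20.9 CPM in CD4 ThpokAD, 290.2 ± 45.4 CPM in CD8 control and 299.6 ± 33.0 CPM in CD4 control and was called in no comparison by either tool. The ubiquitin ligase Cbl had 62.5, 62.0 and 40.5 CPM in CD4 ThpokAD libraries, 52.1, 77.6 and 38.7 CPM in CD8 control libraries and 101, 96.6 and 99.99 CPM in CD4 control libraries. CD4 ThpokAD and CD8 control overlapped below CD4 control, with a log2 fold change of -0.85 (SE 0.27, adjusted p = 0.15) for CD4 ThpokAD over CD4 control. Its relative Cblb averaged 119.8 ± 28.5 CPM in CD4 ThpokAD, 114 ± 24.2 CPM in CD8 control and 155 ± 19.2 CPM in CD4 control and was called in no comparison by either tool. Pag1, the membrane anchor of the inhibitory kinase Csk, had 51.7, 50.0 and 67.6 CPM in CD4 ThpokAD libraries, 69.1, 78.0 and 47.9 CPM in CD8 control libraries and 88.0, 102 and 79.5 CPM in CD4 control libraries. CD4 ThpokAD lay below CD4 control and overlapped CD8 control, with a log2 fold change of -0.67 (SE 0.22, adjusted p = 0.164) over CD4 control. Csk averaged 159 ± 32.2 CPM in CD4 ThpokAD, 145 ± 4.9 CPM in CD8 control and 130.1 ± 22.5 CPM in CD4 control and was called in no comparison by either tool. DESeq2 called Cbl (adjusted p = 0.0344), Pag1 (adjusted p = 0.048) and Sit1 (adjusted p = 0.00207) lower in CD4 ThpokAD cells than in CD4 control.

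Dok2 and the phosphatase SHP-1 are also made by other blood cells. The summed level of 11 myeloid markers, all 11 of them with counts in every group, was 347 to 435 CPM in CD4 ThpokAD, 126 to 366 CPM in CD8 control and 186 to 302 CPM in CD4 control, so this sum was above CD4 control in every CD4 ThpokAD library. By marker, only Csf1r, Cd68 and Itgam were higher in every CD4 ThpokAD library than in any CD4 control library. The other markers overlapped between these groups, and S100a8 was highest in CD4 control replicate 3, at 54.6 CPM. Csf1r, Cd68, Cd14 and Mpeg1 were higher in every CD4 ThpokAD library than in any CD8 control library, and the other myeloid markers overlapped between those groups. The summed level of 8 NK cell markers was 1188 to 1661 CPM in CD4 ThpokAD, 484 to 898 CPM in CD8 control and 23.9 to 28.2 CPM in CD4 control, with 7, 8 and 5 of the 8 detected in these groups. In CD4 ThpokAD and CD8 control most of it was Gzma, which cytotoxic T cells also make. Gzma was at 1034 to 1418 CPM in CD4 ThpokAD libraries and 2.30 to 7.83 CPM in CD4 control libraries. Of the other NK markers, Eomes was at 70.4 to 113 against 4.14 to 11.9 CPM, Klrb1c at 52.3 to 94.9 against 5.20 to 14.8 CPM and Klre1 at 15.5 to 36.4 against 0.058 to 2.92 CPM in these groups. Klra9 was at 5.84 to 8.12 against 0 to 0.311 CPM, and Klra4 at 2.00 to 2.84 CPM against 0 in every CD4 control library. These 6 markers were higher in every CD4 ThpokAD library than in any CD4 control library, and so they were in every CD8 control library. The CD8 control libraries had 248 to 635 CPM of Gzma, 79.4 to 102 CPM of Eomes and 115 to 126 CPM of Klrb1c. They had 14.1 to 43.9 CPM of Klre1, 2.91 to 10.5 CPM of Klra9 and 5.0 to 6.0 CPM of Klra4. Ncr1, a defining NK marker, was at 0 in every CD4 control library and at 0, 2.19 and 3.18 CPM in the CD4 ThpokAD libraries, and Klra8 was at 0 in all libraries of both CD4 groups. The part of other blood cells in the differences between CD4 ThpokAD and either control group was not tested. Summed B cell markers (10 of 10 with counts in each group) were at 28.8 to 70.1 CPM in CD4 ThpokAD, 36.6 to 65.8 CPM in CD8 control and 46.6 to 78.3 CPM in CD4 control. Erythroid markers (6 of 6 with counts in each group) summed to 6.59 to 102 CPM, 11.8 to 52.3 CPM and 4.06 to 119 CPM in the same order of groups, and both lists overlapped between all groups.

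Of the 4 chains of the receptor complex, 0 were called in CD4 ThpokAD over CD4 control by edgeR or DESeq2. An unadjusted p under 0.05 by edgeR was found for 0 of them (15.7% of all genes). Cd3g, Cd3d and Cd3e lie side by side on chromosome 9, with 1354 and 11400 bases between neighbours. Cd3d had 464, 403 and 503 CPM in CD4 ThpokAD libraries, 603, 617 and 759 CPM in CD8 control libraries and 466, 422 and 472 CPM in CD4 control libraries. CD8 control lay above both CD4 groups, which overlapped. Cd3d was called higher in CD8 control than in CD4 control (log2 fold change 0.54, SE 0.13, adjusted p = 0.0262) and lower in CD4 ThpokAD than in CD8 control (log2 fold change -0.53, SE 0.13, adjusted p = 0.042). Without CD8 control replicate 3, the library with the highest level, the adjusted p was 0.0563 over CD4 control and 0.0773 for CD4 ThpokAD over CD8 control. The call over CD4 control was also absent when any 1 CD4 control library was left out (adjusted p = 0.065 to 0.102), and that of CD4 ThpokAD when any 1 of the 9 libraries was left out (adjusted p = 0.0592 to 0.129).

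Cd3e had 663, 679 and 788 CPM in CD4 ThpokAD libraries, 649, 659 and 1116 CPM in CD8 control libraries and 589.8, 656 and 541 CPM in CD4 control libraries. Cd3g had 585, 604 and 655 CPM in CD4 ThpokAD libraries, 647, 723 and 977 CPM in CD8 control libraries and 561, 553 and 546 CPM in CD4 control libraries. For both, every CD4 ThpokAD library was above every CD4 control library, by differences that were not called, a log2 fold change of 0.25 (SE 0.21, adjusted p = 0.647) for Cd3e and a log2 fold change of 0.15 (SE 0.15, adjusted p = 0.71) for Cd3g. Of the exon bases of Cd3e, 9.23% overlap a gene on the other strand. Cd247, the zeta chain that carries most of the phosphorylation sites of the complex, averaged 432 ± 47.5 CPM in CD4 ThpokAD, 325 ± 5.0 CPM in CD8 control and 376 ± 40.2 CPM in CD4 control. It was called by edgeR in no comparison, and by DESeq2 in CD4 ThpokAD over CD8 control (adjusted p = 0.00676). Of its exon bases 68.5% overlap Gm16565 or Pou2f1, so part of its counts may not be its own.

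None of the 4 kinases was called in any comparison by edgeR. In CD4 ThpokAD over CD4 control 0 had an unadjusted p under 0.05 and DESeq2 called 0 (15.7% and 9.3% of all genes). In CD4 ThpokAD over CD8 control these counts were 2 and 3 (21.3% and 15.1%). In CD8 control over CD4 control they were 1 and 1 (26.2% and 19.4%). Lck, the kinase bound to the tails of CD4 and CD8, had 2417, 2413 and 2478 CPM in CD4 ThpokAD libraries, 2186, 2146 and 2262 CPM in CD8 control libraries and 2143, 2159 and 2331 CPM in CD4 control libraries. Fyn, its Src-family relative, had 938, 985 and 922 CPM in CD4 ThpokAD libraries, 718, 576 and 987 CPM in CD8 control libraries and 750.4, 797 and 796 CPM in CD4 control libraries. Both were above every CD4 control library in every CD4 ThpokAD library, by a log2 fold change of 0.14 (SE 0.07, adjusted p = 0.413) for Lck and a log2 fold change of 0.28 (SE 0.17, adjusted p = 0.508) for Fyn, and neither difference was called. Zap70, which docks on the phosphorylated chains, averaged 263 ± 18.5 CPM in CD4 ThpokAD, 214 ± 20.9 CPM in CD8 control and 267 ± 11.0 CPM in CD4 control. Txk, a Tec-family kinase, averaged 95.6 ± 21.5 CPM in CD4 ThpokAD, 164 ± 32.8 CPM in CD8 control and 128 ± 21.5 CPM in CD4 control, and CD4 ThpokAD over CD8 control gave a log2 fold change of -0.78 (SE 0.22, adjusted p = 0.0731). In that comparison DESeq2 called Txk lower (adjusted p = 0.0115), and Lck (adjusted p = 0.0223) and Zap70 (adjusted p = 0.0399) higher.

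Among the 8 adaptors and scaffolds, 0 were called in CD4 ThpokAD over CD4 control. There, 1 had an unadjusted p under 0.05 and DESeq2 called 1 (15.7% and 9.3% of all genes). In CD4 ThpokAD over CD8 control 0 were called, with 3 and 3 by these measures (21.3% and 15.1%). In CD8 control over CD4 control 1 was called lower (6.55% of all genes). That gene, Lcp2, which encodes the scaffold SLP-76, had 567, 669 and 565 CPM in CD4 ThpokAD libraries, 479, 461 and 537 CPM in CD8 control libraries and 598, 744 and 768 CPM in CD4 control libraries. CD8 control lay below both CD4 groups, which overlapped. It was called in CD8 control over CD4 control (log2 fold change -0.51, SE 0.13, adjusted p = 0.0333), but not without CD4 ThpokAD replicate 1, CD8 control replicate 1 or 2, or CD4 control replicate 2 or 3 (adjusted p = 0.0541 to 0.116). Grap2, which links SLP-76 to LAT, had 41.4, 35.5 and 37.2 CPM in CD4 ThpokAD libraries, 48.8, 50.8 and 52.3 CPM in CD8 control libraries and 56.7, 46.9 and 48.1 CPM in CD4 control libraries. CD4 ThpokAD was lowest with no overlap, and a log2 fold change of -0.41 (SE 0.15, adjusted p = 0.223) over CD4 control was called by DESeq2 (adjusted p = 0.0345) but not by edgeR. Themis, an adaptor best known from thymocyte selection, had 233, 276 and 268 CPM in CD4 ThpokAD libraries, 328, 319 and 553 CPM in CD8 control libraries and 306, 332 and 313 CPM in CD4 control libraries. CD4 ThpokAD was again below every library of the other groups, by a log2 fold change of -0.29 (SE 0.20, adjusted p = 0.577) over CD4 control. Grb2, which carries the Ras activator SOS, had 167, 167 and 179 CPM in CD4 ThpokAD libraries, 117, 132 and 167 CPM in CD8 control libraries and 159.5, 163 and 154 CPM in CD4 control libraries, with CD4 ThpokAD above both other groups and a log2 fold change of 0.11 (SE 0.14, adjusted p = 0.806) over CD4 control. Neither difference was called.

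Trat1, which encodes the transmembrane adaptor TRIM, is given by library because 1 library had no count. It had 27.1, 35.9 and 24.9 CPM in CD4 ThpokAD libraries, 6.10, 0 and 3.25 CPM in CD8 control libraries and 30.3, 28.9 and 31.1 CPM in CD4 control libraries. CD8 control lay below every library of the CD4 groups, which overlapped. For Trat1, CD8 control over CD4 control gave a log2 fold change of -3.26 (SE 1.00, adjusted p = 0.0693) and CD4 ThpokAD over CD8 control a log2 fold change of 3.22 (SE 1.00, adjusted p = 0.0998), neither of them called, and DESeq2 called both (adjusted p = 0.0051 and 0.00763). Without CD8 control replicate 2, the library with no count, the adjusted p was 0.00569 for CD4 ThpokAD over CD8 control and 0.00285 for CD8 control over CD4 control. The scaffold Lat averaged 829.6 ± 71.4 CPM in CD4 ThpokAD, 626 ± 155 CPM in CD8 control and 843 ± 106 CPM in CD4 control. Nck1 averaged 85.0 ± 8.7 CPM in CD4 ThpokAD, 100.2 ± 4.5 CPM in CD8 control and 85.8 ± 17.3 CPM in CD4 control. Nck2, like it a link to actin, averaged 72.1 ± 16.8 CPM in CD4 ThpokAD, 61.8 ± 6.7 CPM in CD8 control and 77.2 ± 13.3 CPM in CD4 control. Lat, Nck1 and Nck2 were called by edgeR or DESeq2 in no comparison.

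In the phospholipase, Vav and Ras branch, 0 of 8 genes were called in CD4 ThpokAD over CD4 control. There, 4 had an unadjusted p under 0.05 and DESeq2 called 0 (15.7% and 9.3% of all genes). In CD8 control over CD4 control 0 were called, with 2 and 1 by these measures (26.2% and 19.4%). Prkcq, which encodes protein kinase C-theta, was lower in CD4 ThpokAD than in CD8 control (log2 fold change -0.67, SE 0.12, adjusted p = 0.0131). It had 362, 399 and 408 CPM in CD4 ThpokAD libraries, 607, 609 and 646 CPM in CD8 control libraries and 528, 406 and 529.6 CPM in CD4 control libraries. CD8 control lay above both CD4 groups, which overlapped, and without CD4 ThpokAD replicate 1 the adjusted p was 0.0545. Rasgrp1, the diacylglycerol-dependent Ras activator, had 312, 373 and 278 CPM in CD4 ThpokAD libraries, 365, 289 and 287 CPM in CD8 control libraries and 377, 493 and 463 CPM in CD4 control libraries. CD4 ThpokAD and CD8 control overlapped below CD4 control, and CD4 ThpokAD over CD4 control gave a log2 fold change of -0.47 (SE 0.16, adjusted p = 0.189). Nras had 169.7, 160.1 and 147 CPM in CD4 ThpokAD libraries, 142, 138 and 102 CPM in CD8 control libraries and 138, 115 and 119 CPM in CD4 control libraries. CD4 ThpokAD lay above both control groups, by a log2 fold change of 0.36 (SE 0.16, adjusted p = 0.31) over CD4 control, and neither gene was called by edgeR in any comparison. DESeq2 called Rasgrp1 in CD8 control over CD4 control (adjusted p = 0.0139). The others, called in no comparison by either tool, averaged as follows. The phospholipase Plcg1 averaged 208 ± 15.5 CPM in CD4 ThpokAD, 223 ± 37.4 CPM in CD8 control and 212 ± 43.2 CPM in CD4 control. Vav1, an activator of Rac, averaged 317 ± 36.6 CPM in CD4 ThpokAD, 326 ± 23.5 CPM in CD8 control and 311 ± 40.5 CPM in CD4 control. Sos1, the Ras activator that Grb2 carries, averaged 63.5 ± 21.9 CPM in CD4 ThpokAD, 45.9 ± 14.8 CPM in CD8 control and 74.1 ± 14.6 CPM in CD4 control. Of the kinases downstream of Ras, Map2k1 averaged 102 ± 12.1 CPM in CD4 ThpokAD, 119 ± 14.3 CPM in CD8 control and 113 ± 6.9 CPM in CD4 control. The kinase Mapk3 averaged 41.9 ± 9.6 CPM in CD4 ThpokAD, 36.0 ± 0.95 CPM in CD8 control and 28.7 ± 3.5 CPM in CD4 control.

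The 250 bases before the transcription start are shown for 5 of the 8 members that edgeR called in 2 comparisons. No member was called in more. Each of these 5 has 1 start in the RefSeq promoter table of GRCm38.p6. Capitals mark matches to the core motifs of RUNX factors, whose member Runx3 sets the CD8 lineage that Thpok opposes, and of NFAT. The RUNX core was searched as TGTGGT and ACCACA and the NFAT core as GGAAA and TTTCC, so that both strands were covered, and no match of the RUNX core overlapped one of the NFAT core in these windows.
Orai1 (chr5:123014824-123015073, plus strand): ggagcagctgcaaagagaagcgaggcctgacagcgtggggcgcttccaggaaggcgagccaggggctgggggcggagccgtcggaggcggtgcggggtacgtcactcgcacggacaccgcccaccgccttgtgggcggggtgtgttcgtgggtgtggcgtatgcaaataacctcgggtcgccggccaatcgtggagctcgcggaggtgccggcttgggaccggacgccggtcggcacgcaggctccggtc
Cd5 (chr19:10738975-10739224, minus strand): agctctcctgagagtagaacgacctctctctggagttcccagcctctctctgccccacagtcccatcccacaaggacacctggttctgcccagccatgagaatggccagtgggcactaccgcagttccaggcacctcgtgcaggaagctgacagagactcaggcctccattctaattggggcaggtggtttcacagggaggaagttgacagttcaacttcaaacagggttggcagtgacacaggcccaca
Itpr2 (chr6:146502224-146502473, minus strand): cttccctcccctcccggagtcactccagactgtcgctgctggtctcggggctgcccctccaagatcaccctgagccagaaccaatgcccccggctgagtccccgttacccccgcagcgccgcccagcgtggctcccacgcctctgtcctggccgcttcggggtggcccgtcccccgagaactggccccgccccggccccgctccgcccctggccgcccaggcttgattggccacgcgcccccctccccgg
Sla2 (chr2:156887222-156887471, minus strand): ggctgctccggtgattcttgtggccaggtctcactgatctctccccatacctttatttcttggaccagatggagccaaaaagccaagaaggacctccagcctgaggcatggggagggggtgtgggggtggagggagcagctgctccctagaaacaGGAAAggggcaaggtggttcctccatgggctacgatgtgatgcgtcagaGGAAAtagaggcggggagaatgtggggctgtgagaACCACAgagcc
Cd3d (chr9:44981536-44981785, plus strand): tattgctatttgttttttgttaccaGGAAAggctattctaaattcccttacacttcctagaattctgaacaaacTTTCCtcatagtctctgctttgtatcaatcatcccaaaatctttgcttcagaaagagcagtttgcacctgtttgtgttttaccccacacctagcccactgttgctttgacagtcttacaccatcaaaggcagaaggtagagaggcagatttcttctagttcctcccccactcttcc
Sla2, higher in CD4 ThpokAD and in CD8 control than in CD4 control, had a RUNX core beginning 11 bases before its start and NFAT cores beginning 95 and 46 bases before it. Cd3d had NFAT cores 225 and 176 bases before its start. These letters were not in the windows of Orai1, Cd5 or Itpr2. Of 60 promoters of 43 members in the table, 11.7% held the RUNX core and 66.7% the NFAT core, against 14.0% and 55.6% of all 32851 promoters. The other 8 members, Mapk3, Pag1, Dok1, Dok2, Sla, Cd6, Ppp3ca and Nfatc1, were not matched in the table. A match is a run of letters and not a measured binding site.

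Several members come as relatives, and the ratio of their CPM within a library is independent of its scaling. These ratios are not corrected for gene length, so only their differences between groups are read. The ratio of Ppp3ca to Ppp3cb was 2.75, 2.70 and 3.03 in CD4 ThpokAD, 1.75, 1.46 and 2.24 in CD8 control and 1.04, 0.980 and 1.03 in CD4 control. The 3 groups did not overlap. The ratio of Sla to Sla2 was 8.04, 6.94 and 6.04 in CD4 ThpokAD, 5.05, 3.97 and 4.77 in CD8 control and 11.4, 10.1 and 8.80 in CD4 control. That of Itpr2 to Itpr3 was 1.88, 2.12 and 2.37 in CD4 ThpokAD, 1.69, 1.45 and 1.66 in CD8 control and 4.26, 3.44 and 2.41 in CD4 control. Both ratios were highest in CD4 control and lowest in CD8 control, with no overlap between groups.

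The ratio of Ubash3a to Ubash3b was 1.18, 1.63 and 1.44 in CD4 ThpokAD, 2.18, 2.41 and 3.41 in CD8 control and 2.65, 2.75 and 3.91 in CD4 control. CD4 ThpokAD was lowest, and the control groups overlapped. The ratio of Dgka to Dgkz was 1.95, 1.66 and 1.49 in CD4 ThpokAD, 2.42, 2.07 and 1.85 in CD8 control and 2.79, 2.21 and 2.87 in CD4 control. CD4 ThpokAD lay below CD4 control, and CD8 control overlapped both. Of 11 pairs, 6 did not overlap between CD4 ThpokAD and CD4 control, 6 between CD4 ThpokAD and CD8 control and 6 between CD8 control and CD4 control. The 11 include Cd3e with Cd247, chains of the receptor complex that are not relatives. Several pairs hold a called member, and the share for ratios of other genes was not measured, so these counts have no background beside them. Cblb with Cbl and Dok1 with Dok2 overlapped in every comparison. No test was run on these ratios.

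**Figure D3:**
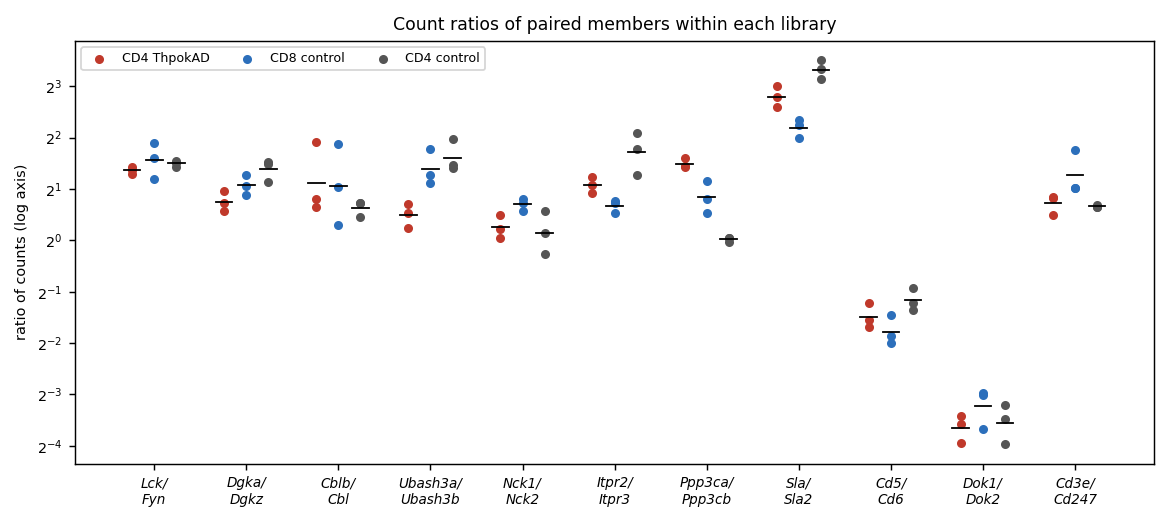
Ratio of the CPM of paired members within each library (y axis, log2 scale) for 11 pairs (x axis), by group; points are libraries and lines are means of the log2 ratios. For Ppp3ca/Ppp3cb the CD4 ThpokAD libraries lie at 2.70 to 3.03, the CD8 control libraries at 1.46 to 2.24 and the CD4 control libraries at 0.980 to 1.04.

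Levels between genes were compared as CPM per kb of exon. Lck was highest, with 1051 in CD4 ThpokAD, 949 in CD8 control and 954 in CD4 control. Ptprc followed in the CD4 groups, with 788 in CD4 ThpokAD, 679 in CD8 control and 849 in CD4 control. Cd3g lay above it in CD8 control, with 601 in CD4 ThpokAD, 765 in CD8 control and 541 in CD4 control. Lck, Ptprc, Lat, Cd3g and Cd3e were the 5 most abundant members in each group. Trat1 was lowest in CD8 control and CD4 control, at 0.669 ± 0.65 and 6.45 ± 0.24 CPM per kb, and Cbl was lowest in CD4 ThpokAD, at 4.83 ± 1.1 CPM per kb. Orai1 had 140.2 in CD4 ThpokAD, 28.1 in CD8 control and 219 in CD4 control CPM per kb. Stim1 had 56.5 in CD4 ThpokAD, 43.0 in CD8 control and 53.5 in CD4 control, less than Orai1 in both CD4 groups and more in CD8 control. Of the NFAT genes, Nfatc3 had 99.67 in CD4 ThpokAD, 91.2 in CD8 control and 101 in CD4 control CPM per kb. Nfatc1 had 73.7 in CD4 ThpokAD, 40.1 in CD8 control and 89.8 in CD4 control. Nfatc2 was lowest, with 21.4 in CD4 ThpokAD, 18.0 in CD8 control and 29.0 in CD4 control. Ppp3ca had 31.0 in CD4 ThpokAD, 20.9 in CD8 control and 12.7 in CD4 control CPM per kb. Ppp3cb had 11.0 in CD4 ThpokAD, 11.8 in CD8 control and 12.5 in CD4 control, so these subunits were at like levels in CD4 control.

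**Figure D4:**
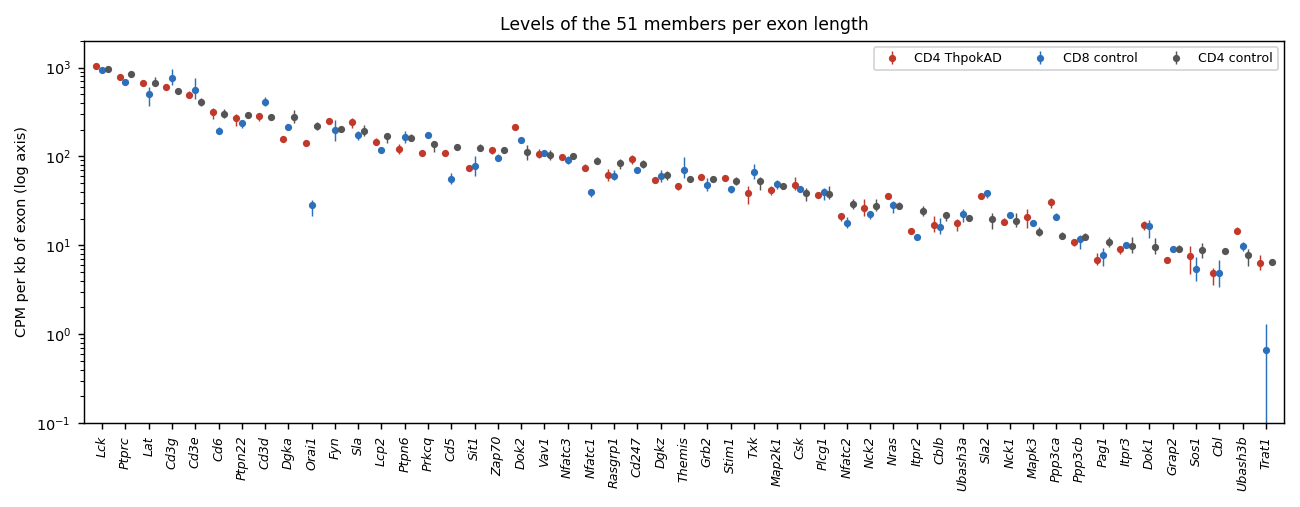
Level of each of the 51 genes as CPM per kb of exon (log axis) in the 3 groups; points are group means and bars run from the lowest to the highest library. Lck lies near the top at 949 to 1051 and Trat1 lowest in CD8 control at 0.669; its bar there reaches the edge of the axis because 1 library had no count.

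Of 60 other genes of the pathway, 59 were tested. In CD4 ThpokAD over CD4 control 1 was called higher and 2 lower, against 1.81% and 0.928% of all genes tested. The higher one was Sh2d2a, which encodes an adaptor that binds Lck, with 1021 CPM in CD4 ThpokAD against 626 CPM in CD4 control (log2 fold change 0.71, SE 0.10, adjusted p = 0.00899). Among the lower was the costimulatory receptor Cd28, with 1180.5 CPM in CD4 ThpokAD against 1645 CPM in CD4 control (log2 fold change -0.48, SE 0.10, adjusted p = 0.0447).

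In CD4 ThpokAD over CD8 control 6 of the 59 were called higher and 2 lower, against 4.63% and 1.91% of all genes tested. Cd28 had 1180.5 CPM in CD4 ThpokAD against 455 CPM in CD8 control (adjusted p = 0.000101). Sh2d2a had 1021 CPM in CD4 ThpokAD against 405 CPM in CD8 control (adjusted p = 0.000121). Pik3r1, a regulatory subunit of the lipid kinase PI3K, had 350.1 CPM in CD4 ThpokAD against 144 CPM in CD8 control (adjusted p = 0.00568), and Fcer1g, a signalling chain shared by Fc receptors, 28.8 CPM in CD4 ThpokAD against 8.26 CPM in CD8 control (adjusted p = 0.0175). Fcer1g had 36.2, 34.0 and 16.1 CPM in CD4 ThpokAD libraries, and the part of other blood cells in its difference was not tested. The lower ones were Orai2, a relative of Orai1, with 122 CPM in CD4 ThpokAD against 212 CPM in CD8 control (log2 fold change -0.79, adjusted p = 0.0163), and Tespa1, with 80.8 CPM in CD4 ThpokAD against 144 CPM in CD8 control (adjusted p = 0.0223).

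In CD8 control over CD4 control 6 were called higher and 13 lower, against 5.13% and 6.55% of all genes tested. Higher were the adaptors Gab3, with 100.2 CPM in CD8 control against 36.5 CPM in CD4 control (adjusted p = 0.00195), and Lax1, with 247 CPM in CD8 control against 128 CPM in CD4 control (adjusted p = 0.00397). So were Tespa1, with 144 CPM in CD8 control against 84.4 CPM in CD4 control (adjusted p = 0.0199), and the PI3K catalytic subunit Pik3cd, with 768 CPM in CD8 control against 502 CPM in CD4 control (adjusted p = 0.0251). Among the lower ones was Cd28, with 455 CPM in CD8 control against 1645 CPM in CD4 control (adjusted p = 1.42e-05). So were Bcl10, part of the complex that links protein kinase C-theta to NF-kB, with 63.8 CPM in CD8 control against 144 CPM in CD4 control (adjusted p = 0.00474), and Sh2d2a, with 405 CPM in CD8 control against 626 CPM in CD4 control (adjusted p = 0.00482). Sh2d2a was therefore called in all 3 comparisons, highest in CD4 ThpokAD and lowest in CD8 control.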

How the data were processed

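Per the labels' protocols, low-input amplification and transposase-based library kits were used, neither of which marks strand, with paired reads of 126 bases. Tools named without a role in the submitters' processing notes are STAR, HTSeq, Trimmomatic, DESeq2 and bcl2fastq 2.17, with the build mm10. The sources used here give neither the annotation nor the strand setting of the counting. The deposited counts are raw whole numbers for each gene symbol. A deposited table of the same samples scaled by the authors was not used.

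Samples were grouped by title (3 groups of 3). Genes were filtered with filterByExpr at a minimum count of 10 and a minimum total of 15. This kept 15738 genes, with 99.8% to 99.9% of each library's counts. Groups were compared with edgeR 4.0.16 (R 4.3.3) by its quasi-likelihood test, using TMM scaling and 1 fit of the 9 libraries; p-values were adjusted by Benjamini and Hochberg's method over all genes of a comparison. SE was the log2 fold change over the square root of F. Levels are edgeR's CPM on TMM-scaled library sizes. Depth varied by library, and deeper libraries have less counting error. Alternatives were DESeq2 1.42.0, median-of-ratios scaling, no filter, a replicate block, only the 6 libraries compared, and each library left out. Coordinates, exon lengths and overlaps are from GENCODE M21 (GRCm38, 1-based), and promoters from RefSeq (GRCm38.p6). Scripts were tested on simulated data.

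The members and lists were chosen with earlier results of these data known. Values in every library are given for members called in at least 1 comparison or not overlapping between CD4 ThpokAD and CD4 control; other members are given by group. Besides Ppp3cc, named as a relative of Ppp3ca, up to 4 called other pathway genes per comparison and direction are named, by adjusted p. Of the genes this rule gave, 1 is not reported here.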

Additional observations from a re-analysis of the deposited data

How the results depend on the processing

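With DESeq2, called genes numbered 1470 for CD4 ThpokAD over CD4 control (431 by edgeR), 2390 for CD4 ThpokAD over CD8 control (1030) and 3240 for CD8 control over CD4 control (1839). Among the 51 members DESeq2 called 5 higher and 7 lower in CD4 ThpokAD cells than in CD4 control, 14 higher and 7 lower in CD4 ThpokAD than in CD8 control, and 5 higher and 15 lower in CD8 control than in CD4 control. With no low-count filter, 2 members were higher in CD4 ThpokAD than in CD4 control and 1 lower than in CD8 control. With only the 6 libraries compared, 2 were higher and 4 lower than in CD4 control, and 1 lower than in CD8 control.

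With a replicate block, 281 genes were called for CD4 ThpokAD over CD4 control, with 1 member lower, and 684 for CD4 ThpokAD over CD8 control. Libraries of the same number did not deviate together (correlations of -0.0454 to 0.062, 0 of 9 pairs over 0.1, 2 of 9 libraries correlated best with their own number). No pairing by number was seen in these values, but with 3 libraries per group they cannot exclude one.

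Leaving out 1 library gave 181 to 477 called genes for CD4 ThpokAD over CD4 control, with 1 to 2 members higher and 0 to 3 lower. It gave 589 to 788 for CD4 ThpokAD over CD8 control, with 3 to 4 members higher and 0 to 1 lower, and 1058 to 1667 for CD8 control over CD4 control, with 1 to 3 higher and 5 to 8 lower. Every one of the 9 libraries lowered the count of members called in at least 1 direction of at least 1 comparison. Calls held whichever library was left out for 1 of 6 members, 3 of 6 and 5 of 12 in these comparisons. Over the alternatives, 93 single-gene values lost their call, 41 gained one and 0 reversed. A further 773 values stayed the same and 4 moved, which include the members' median fold changes and the pair ratios. Medians and ratios have no threshold, so 773 is not the number of single-gene values that kept their direction and side of it. The cause of these changes was not tested.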
